A study of Mus musculus with 4 samples.

Results

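RNA levels of 10 genes of the epidermal growth factor (EGF) receptor family were measured in mouse tumors. The genes are the receptors Egfr, Erbb2 and Erbb3 and the ligands Areg, Ereg, Hbegf, Btc, Tgfa, Nrg1 and Epgn. They were chosen by name as members of the family, with earlier results of these data known. They make up 10 of the 47729 genes in the deposited table. The tumors were formed by Lewis lung carcinoma (LLC) cells, a mouse line of C57BL/6 origin, grafted under the skin of the back of C57BL/6 mice and collected on day 5. Tumors of the LLC group came from wild type cells. Those of the LLC-Chem group came from cells transfected with a pEFIN plasmid that encodes a bioactive form of murine chemerin, a chemoattractant protein. The study used this model to ask how chemerin made by the tumor changes tumor growth and its vessels. Each group comprised 2 pools of 3 tumors, and each pool was 1 library. The transfected cells were collected as selected clones, so that a trait of a clone and an effect of chemerin cannot be told apart. P-values rest on the spread between pools, which averages over the tumors in each. In the main test (limma), a gene's own spread is combined with that of all genes tested.

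The receptors of this family are tyrosine kinases of the cell surface that become active in pairs. EGFR, encoded by Egfr, binds most of the ligands. ERBB2 has no known ligand and acts as a preferred partner, and ERBB3 binds neuregulins but has a weak kinase. Each ligand is made as a precursor in the membrane, from which proteases such as ADAM17 release its EGF domain. Amphiregulin (Areg), transforming growth factor alpha (Tgfa) and epigen (Epgn) act through EGFR, whereas epiregulin (Ereg), heparin-binding EGF-like growth factor (Hbegf) and betacellulin (Btc) can also bind ERBB4. Neuregulin 1 (Nrg1) binds ERBB3 and ERBB4. The activated receptors signal through the RAS-ERK and PI3K-AKT cascades, which drive growth and survival in many carcinomas.

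What makes these 7 ligands a family is the EGF domain, which is held by 6 cysteines in a fixed spacing, and its coding sequence is shown here for that reason. The pattern searched was 6 cysteines with 7, then 4 to 5, then 10 to 13, then 1, and then 8 other residues between successive ones. Its limits equal the lowest and highest spacings in the 7 ligands, so that these hold it was fixed by the pattern. In the translated coding sequences of the GENCODE M21 annotation on GRCm38, it occurred in 59 of 21592 protein-coding genes (0.273%). All 7 ligands held it, at 1 place each and encoded across 2 coding exons, and so did 4 of the 5 family genes that are not among the 10 (Egf, Nrg2, Nrg3 and Nrg4, but not the receptor Erbb4). None of the 3 receptors (0) held it. Its first and last bases lie at chr5:91143614-91144364 (plus strand) in Areg, chr5:91088496-91089111 (plus) in Ereg, chr5:91362421-91366197 (minus) in Btc, chr6:86263200-86269960 (plus) in Tgfa, chr8:31837698-31849398 (minus) in Nrg1 and chr5:91031152-91032237 (plus) in Epgn. The sequences are given 5′ to 3′ without the intron, and the capitals mark the codons of the 6 cysteines.
Areg: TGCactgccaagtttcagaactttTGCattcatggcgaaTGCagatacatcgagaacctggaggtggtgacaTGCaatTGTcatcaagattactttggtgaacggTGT
Ereg: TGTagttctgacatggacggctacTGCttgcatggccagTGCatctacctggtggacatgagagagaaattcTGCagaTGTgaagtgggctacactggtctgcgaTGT
Btc: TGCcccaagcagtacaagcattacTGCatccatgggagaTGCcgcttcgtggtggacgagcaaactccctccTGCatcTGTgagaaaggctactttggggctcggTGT
Tgfa: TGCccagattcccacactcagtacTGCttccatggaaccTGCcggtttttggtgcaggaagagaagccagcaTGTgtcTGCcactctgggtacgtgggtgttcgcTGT
Nrg1: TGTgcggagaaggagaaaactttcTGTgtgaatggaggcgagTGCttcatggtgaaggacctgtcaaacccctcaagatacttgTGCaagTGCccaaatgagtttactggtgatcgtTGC
Epgn: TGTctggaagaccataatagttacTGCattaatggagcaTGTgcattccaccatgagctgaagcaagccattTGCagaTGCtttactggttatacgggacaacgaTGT

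The domain spans 36 residues in 6 of the ligands, Hbegf included, and 40 in Nrg1, which has 5 rather than 4 residues between cysteines 2 and 3 and 13 rather than 10 between cysteines 3 and 4. Among the 36-residue domains, Hbegf and Btc were the most alike, with 20 identical residues (55.6%), followed by Tgfa and Btc with 19 (52.8%). Areg shared 12 of 36 residues (33.3%) with its chromosomal neighbour Ereg and as many with Epgn, the lowest values of the 15 pairs.

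Expression was deposited as RPM, that is, reads per 1000000. The RPM values are multiples of a fixed step, from which totals of 28470000 to 33990000 reads per pool were fitted. A step was worth 1.42 to 1.70 reads. Read counts given here are therefore known to within 1 read, provided that the inferred scaling to 20000000 reads, rounded up, holds. At these totals 3 reads, the smallest amount taken as detected, are 0.0883 to 0.1054 RPM. These limits cover counting error only. Rarres2, which encodes chemerin, was at 102 and 98.2 RPM in LLC and at 106 RPM in either LLC-Chem pool (log2 fold change 0.08, SE 0.09, adjusted p = 0.541 by limma), so it does not settle the labels. As for the labelled cell type, the simple-epithelial keratin Krt8 was at 82.8 to 167 RPM in the 4 pools while Epcam did not exceed 0.20 RPM. In bulk RNA, fewer cells of a type and less RNA per cell cannot be told apart.

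The comparison of the groups asks which receptors and ligands differ in RNA between the tumors labelled LLC-Chem and LLC. Egfr was higher in the LLC-Chem pools, at 163% of the LLC mean, while 3 EGFR ligands were lower: Areg at 32.4%, Hbegf at 48.5% and Tgfa at 27.5%. The other receptors and ligands did not pass the test, and Ereg, which lies next to Areg, had overlapping groups. The test was limma on log2(RPM + 0.5), two-sided, adjusted by Benjamini-Hochberg over the 13694 genes whose mean reached 1 RPM. A gene was called where its adjusted p was under 0.05. Of the 10 members, 1 was called higher, where 9.54% of all genes tested were, and 3 were called lower, where 13.5% of all genes tested were. Epgn was too low to be tested, and Tgfa and Nrg1 reached the minimum of 1 RPM only through the LLC pools. The groups did not overlap, with the LLC-Chem pools higher, for 2 of the 9 members tested, where this held for 33.1% of all genes tested, and with the LLC-Chem pools lower for 6, where it held for 39.3%. The edgeR quasi-likelihood test on the recovered reads called the same 4 genes (adjusted p = 0.0341 for Egfr, 0.0369 for Areg, 0.0461 for Hbegf and 0.0267 for Tgfa), beside 11.3% of all genes called higher and 11.7% lower. With any 1 of the 4 pools left out, none of the 13694 genes was called by limma (0), although 2578 to 4973 of them had an unadjusted p under 0.05, so that no call could be checked in this way. In such a fit the group with 1 pool is assumed to vary like the other. Without the trend of variance on expression in limma, Egfr, Areg and Hbegf were not called (adjusted p = 0.0561, 0.0647 and 0.0753), and with all genes above 0 RPM in any pool tested, none of the 4 was (0 called, adjusted p from 0.105 to 0.16).

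**Figure D1:**
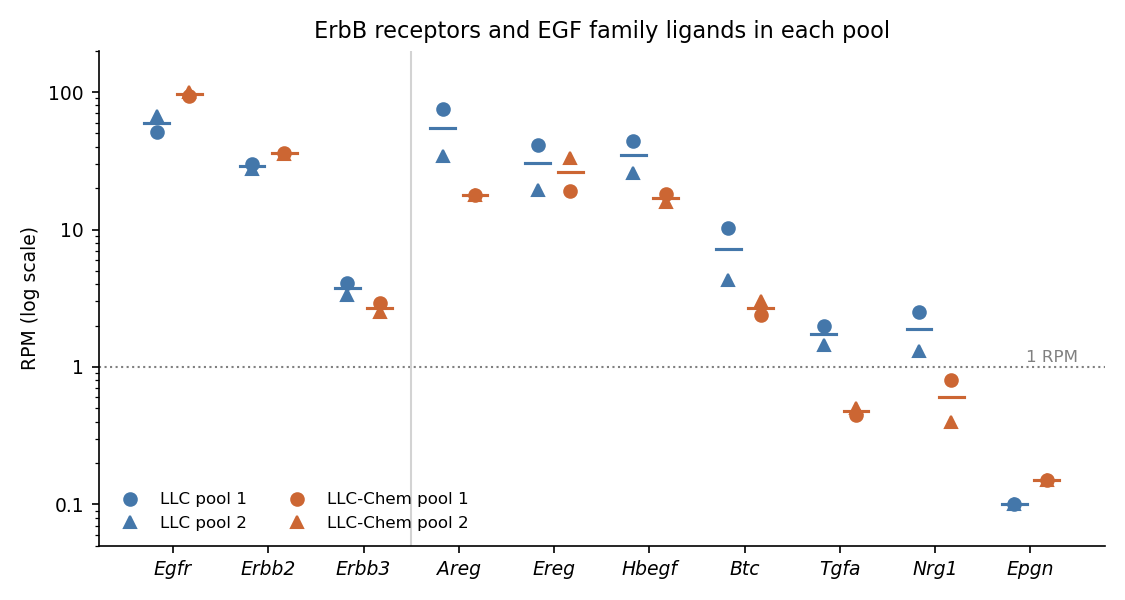
RPM on a log scale of each receptor (left of the vertical line) and ligand (right) in the 4 pools, with circles for pool 1, triangles for pool 2, blue for LLC, orange for LLC-Chem, and a short bar at the mean of each group. Both LLC-Chem values lie above both LLC values for Egfr (94.0 and 99.9 against 51.7 and 67.5 RPM) and below them for Areg (17.8 and 17.7 against 75.5 and 34.1 RPM), and the Ereg values of the groups overlap.

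Egfr (ENSMUSG00000020122, GRCm38 chr11:16752203-16918158, plus strand) encodes the receptor bound by most of the ligands. The LLC pools gave 51.7 and 67.5 RPM, and the LLC-Chem pools gave 94.0 and 99.9 RPM. Both LLC-Chem values were above both LLC values, and they lay closer together than the LLC values. The means were 59.6 ± 11.2 RPM and 96.97 ± 4.14 RPM (SD, n = 2 each), and Egfr rose by 0.71 on the log2 scale (SE 0.15, adjusted p = 0.0301, limma). Left-out pools moved the log2 fold change between 0.52 and 0.90, with adjusted p from 0.0771 to 0.244.

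Erbb2 (ENSMUSG00000062312, chr11:98412470-98437716, plus strand), the partner receptor, was at 30.03 and 27.6 RPM in LLC and at 36.2 and 35.4 RPM in LLC-Chem. The LLC-Chem values were again the higher ones, but by a smaller margin that did not pass the test (log2 fold change 0.31, SE 0.11, 95% interval 0.025 to 0.595, adjusted p = 0.101). Erbb3 (ENSMUSG00000018166, chr10:128567523-128589652, minus strand), the neuregulin receptor, was the weakest of the 3, at 4.10 and 3.35 RPM in LLC and 2.90 and 2.499 RPM in LLC-Chem. Its values lay lower in both LLC-Chem pools without passing the test (log2 fold change -0.40, SE 0.22, adjusted p = 0.215). Erbb4, the remaining receptor of the family, had 0 reads in all 4 pools, which limits it to under 0.1054 RPM in the shallowest pool.

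Areg (ENSMUSG00000029378, chr5:91139599-91148432, plus strand) encodes amphiregulin. It reached 75.5 and 34.1 RPM in LLC, against 17.8 and 17.7 RPM in LLC-Chem. The LLC pools thus differed from each other 2.21-fold, while the LLC-Chem pools were nearly equal, and even the lower LLC pool was above both of them. The means were 54.8 ± 29.2 and 17.7 ± 0.0705 RPM (SD, n = 2 each), and Areg fell by 1.49 on the log2 scale (SE 0.36, adjusted p = 0.0388, limma). Without LLC pool 1 the log2 fold change was -0.93 (adjusted p = 0.0834), and without LLC pool 2 it was -2.06 (adjusted p = 0.0771).

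Hbegf (ENSMUSG00000024486, chr18:36504927-36515805, minus strand), the heparin-binding ligand, was at 44.0 and 26.0 RPM in LLC and at 18.2 and 15.8 RPM in LLC-Chem. LLC pool 1 was again the highest library, and the groups did not overlap. The means were 35.0 ± 12.8 and 16.99 ± 1.70 RPM (SD, n = 2 each). Hbegf fell by 0.98 on the log2 scale (SE 0.26, adjusted p = 0.0484, limma), which is close to the threshold. The call was lost with a minimum mean of 0.2 RPM (adjusted p = 0.0593). Without LLC pool 1 the log2 fold change of Hbegf was -0.60, and without LLC pool 2 it was -1.35.

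Tgfa (ENSMUSG00000029999, chr6:86195223-86275719, plus strand), a ligand of EGFR, was expressed at a low level. It measured 2.00 and 1.45 RPM in LLC, from 61 and 41 reads, and 0.45 and 0.50 RPM in LLC-Chem, from 14 and 16 reads. The difference was larger than the spread within either group, but Tgfa reached the minimum mean of 1 RPM for testing only through the LLC pools. Tgfa fell by 1.18 on the log2(RPM + 0.5) scale (SE 0.26, adjusted p = 0.0324, limma), a scale that understates the change of weakly expressed genes, and by 1.89 on the log2 scale in the edgeR quasi-likelihood fit of the reads.

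Btc (ENSMUSG00000082361, chr5:91357261-91402994, minus strand), which encodes betacellulin, was at 10.2 and 4.30 RPM in LLC and at 2.40 and 2.998 RPM in LLC-Chem. Both LLC-Chem values were below both LLC values, but the LLC pools were 2.38-fold apart and the difference did not pass the test (log2 fold change -1.17, SE 0.40, 95% interval -2.17 to -0.17, adjusted p = 0.0856). It was called by DESeq2 on the recovered reads (adjusted p = 0.0202) and by edgeR's likelihood ratio test (adjusted p = 0.0186). Its log2 fold change was -0.59 without LLC pool 1 and -1.76 without LLC pool 2. Nrg1 (ENSMUSG00000062991, chr8:31814551-32884029, minus strand), the ligand of ERBB3, was at 2.499 and 1.30 RPM in LLC, from 76 and 36 reads, and at 0.80 and 0.40 RPM in LLC-Chem, from 26 and 13 reads. In each group its higher pool was about as far above the lower one, at 1.92-fold and 2.00-fold. The difference did not pass the test (log2 fold change -1.10, SE 0.36, adjusted p = 0.0744) except by edgeR's likelihood ratio test (adjusted p = 0.0118), and was -0.74 without LLC pool 1. Exons of another gene cover 4.7% of the exon bases of Nrg1, the most of any member, and whether counting used strand is not given in the sources used here.

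Ereg (ENSMUSG00000029377, chr5:91074622-91093646, plus strand), which encodes epiregulin, was at 41.4 and 19.4 RPM in LLC and at 19.1 and 33.1 RPM in LLC-Chem. Each group held a pool near 19 RPM and a pool above 33 RPM, so the groups overlapped. The means were 30.4 ± 15.6 and 26.1 ± 9.86 RPM (SD, n = 2 each), with a log2 fold change of -0.17 (SE 0.41, adjusted p = 0.776). Its 95% interval ran from -1.20 to 0.86 and so included the log2 fold changes of both Hbegf (-0.98) and Egfr (0.71). Epgn (ENSMUSG00000035020, chr5:91027464-91035215, plus strand), which encodes epigen, had 2 or 3 reads in LLC pool 1, 2 in LLC pool 2, and 4 or 5 in each LLC-Chem pool. These values lie around the 3 reads taken as detected, so no fold change is given.

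The family genes outside the 10 were weak. Egf, the founding ligand, was at 1.349 and 1.70 RPM in LLC and 1.45 and 1.499 RPM in LLC-Chem (log2 fold change -0.03, adjusted p = 0.931). Nrg4, a ligand of ERBB4, was at 1.60 and 1.199 RPM in LLC and 0.80 and 1.15 RPM in LLC-Chem (log2 fold change -0.37, adjusted p = 0.336). Nrg2 had 22 and 8 reads in LLC and 4 and 3 reads in LLC-Chem and was not tested, and Nrg3 had 0 reads in all 4 pools.

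**Figure D2:**
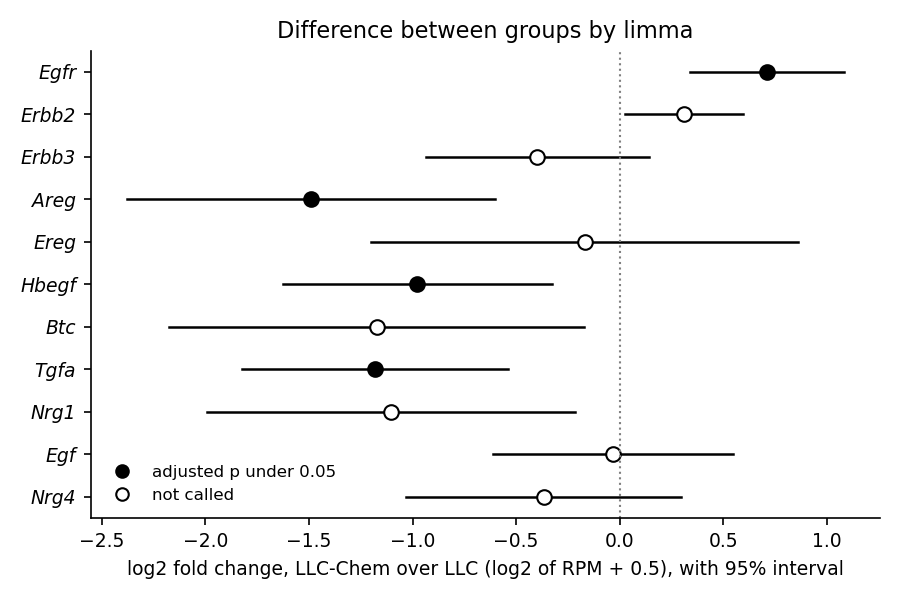
Log2 fold change of LLC-Chem over LLC on the log2(RPM + 0.5) scale for each tested member and for Egf and Nrg4, with its 95% interval from limma, where filled circles are genes with an adjusted p under 0.05 and open circles are genes not called. Egfr at 0.71 is the filled circle right of 0, and Areg at -1.49, Hbegf at -0.98 and Tgfa at -1.18 are those left of 0, while the interval of Ereg runs from -1.20 to 0.86. Tgfa and Nrg1 were tested only because of their level in the LLC pools.

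The ligands also varied between the LLC pools. Pool 1 was above pool 2 for each of the 6 ligand members that were tested, by 1.38-fold for Tgfa, 1.69-fold for Hbegf, 1.92-fold for Nrg1, 2.14-fold for Ereg, 2.21-fold for Areg and 2.38-fold for Btc. Egf, outside the 10, ran the other way, at 1.349 and 1.70 RPM. The receptors differed less between these pools, with Egfr 1.31-fold lower and Erbb2 and Erbb3 1.09-fold and 1.22-fold higher in pool 1. In the LLC-Chem group the pools were within 1.25-fold of each other for Areg, Hbegf, Tgfa and Btc, but differed 1.73-fold for Ereg and 2.00-fold for Nrg1.

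Levels of different genes were compared per length, as RPM per kb of exon. On this scale Areg was the most abundant ligand in every pool, at 62.1 and 28.1 in LLC and 14.6 and 14.6 in LLC-Chem. Ereg and Hbegf followed. Ereg was at 10.04 and 4.70 in LLC and 4.64 and 8.01 in LLC-Chem, and Hbegf at 9.11 and 5.38 in LLC and 3.76 and 3.27 in LLC-Chem. Their values overlapped in LLC, while in LLC-Chem both Ereg values were above both Hbegf values. The order also depended on the length used, since with the longest transcript Hbegf was above Ereg in each LLC pool, at 15.2 and 8.99, and overlapped with it in LLC-Chem, at 6.29 and 5.46. Btc came next, from 0.531 to 2.27, and Tgfa, Nrg1 and Epgn were each at or below 0.308. Areg made up 72.5% ± 1.94 of the summed ligand level in LLC and 58.0% ± 4.94 in LLC-Chem (SD, n = 2 each). The share of Ereg was 11.9% ± 0.0316 and 24.8% ± 7.45, and that of Hbegf 12.2% ± 1.96 and 14.0% ± 2.53, where the last pair differed by less than its spread. In these units the ratio of Ereg to Areg was 0.162 and 0.167 in the LLC pools, nearly the same although both genes differed more than 2-fold between those pools, and 0.317 and 0.550 in the LLC-Chem pools. The smallest p that an exact permutation test allows with 2 pools in each group is 0.33, so shares and ratios were not tested.

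The receptors were within a narrower range. Egfr and Erbb2 were close per kb of exon, at 4.56 and 5.96 against 5.76 and 5.29 in the LLC pools and at 8.30 and 8.82 against 6.95 and 6.79 in the LLC-Chem pools. Erbb2 was thus above Egfr in LLC pool 1 and below it in the other 3 pools. Erbb3 was far below both, from 0.415 to 0.681. The summed ligand level was 84.1 and 39.5 in LLC and 23.8 and 26.7 in LLC-Chem, and the summed receptor level was 11.01 and 11.8 in LLC and 15.7 and 16.03 in LLC-Chem. The ratio of ligand to receptor RNA was accordingly 7.64 and 3.35 in LLC and 1.51 and 1.67 in LLC-Chem, with no overlap between the groups. Without Areg, the summed ligand level was 22.0 and 11.4 in LLC and 9.16 and 12.1 in LLC-Chem, and the groups overlapped.

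**Figure D3:**
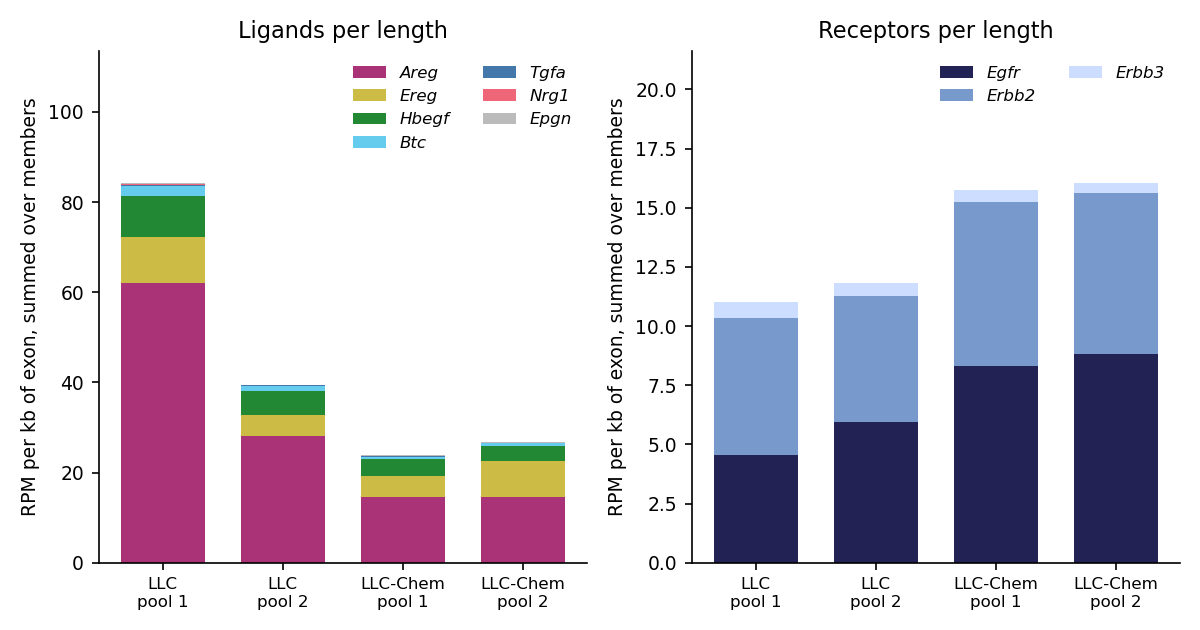
RPM per kb of exon of the ligands (left panel) and receptors (right panel), stacked over the members, for each of the 4 pools, with both axes starting at 0 and on different scales. The ligand stacks reach 84.1 and 39.5 in LLC and 23.8 and 26.7 in LLC-Chem and are mostly Areg, and the receptor stacks reach 11.01 and 11.8 in LLC and 15.7 and 16.03 in LLC-Chem.

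Epgn, Ereg, Areg and Btc lie together on chromosome 5, within 375.5 kb. The window that reaches 500 kb beyond them on either side holds 16 protein-coding genes, of which 12 are not members and 8 of those were tested. Among these 8, 5 were called lower and 0 higher, beside 13.5% and 9.54% of all genes tested. The chemokines Cxcl3 (log2 fold change -4.00, adjusted p = 0.0093), Ppbp (-3.44, 0.01), Cxcl2 (-2.16, 0.0355) and Pf4 (-1.12, 0.0126) fell, as did Parm1 (-1.37, 0.0354). Cxcl5, Cxcl1 and Mthfd2l were not called (adjusted p = 0.268, 0.0939 and 0.062). Cxcl1 had the widest range of the window in RPM, though not as a fold, with 56.9 and 15.04 RPM in LLC and 77.9 and 448 RPM in LLC-Chem. The genes of the window that fell therefore lay on both sides of Ereg, which was not called.

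Other genes of the pathway were followed in 5 lists, whose counts stand beside 9.54% of all genes tested called higher and 13.5% called lower. With so few genes called in each list, the counts are given as values and nothing particular to a list is read from them. Of the 8 genes for ligand shedding, 2 rose and 1 fell, with a median log2 fold change of 0.13. Adam17, the main protease that releases Areg, Tgfa and Hbegf, rose, with 169 and 184 RPM in LLC and 286 and 298 RPM in LLC-Chem (log2 fold change 0.73, SE 0.10, adjusted p = 0.0144). Rhbdf1, a cofactor of ADAM17, rose too (0.59, adjusted p = 0.0276). Adam12, another metalloprotease, fell, with 40.9 and 57.0 RPM in LLC and 8.90 and 8.05 RPM in LLC-Chem (log2 fold change -2.45, SE 0.19, adjusted p = 0.00727).

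Of the 18 receptor inhibitors and turnover genes, 2 rose and 2 fell (median 0.04). Lrig1, a transmembrane protein that lowers ErbB receptor levels, rose, with 218 and 204 RPM in LLC and 410.2 and 402 RPM in LLC-Chem (log2 fold change 0.94, SE 0.10, adjusted p = 0.0116), and its relative Lrig2 rose (0.50, adjusted p = 0.0489). The phosphatases Ptpn1 (-0.73, adjusted p = 0.0245) and Ptprj (-0.78, adjusted p = 0.0397) fell. Of 12 alternative settings that kept all 4 pools, Lrig2 was called in 8 and Ptprj in 7, the latter lost with TMM scaling (adjusted p = 0.0503) and in edgeR's quasi-likelihood test (0.0515). Among the 12 is a crossed pairing of the pools, chosen after the data were seen, in which both were called. Among the 18 genes of adaptors and the RAS-ERK cascade, 2 rose and 1 fell (median 0.06). The phospholipase Plcg1 (0.65, adjusted p = 0.0159) and the kinase Braf (0.60, adjusted p = 0.0346, called in 9 of the 12 settings) rose, and the adaptor Grb2 fell (-0.43, adjusted p = 0.0472), a call that was lost with TMM or median-of-ratios scaling and in edgeR's quasi-likelihood test.

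In the PI3K-AKT and STAT branch 4 of 12 genes rose and 2 fell (median 0.04). Genes for subunits and kinases moved in both directions. The regulatory subunits Pik3r1 (0.99, adjusted p = 0.0132) and Pik3r2 (0.61, adjusted p = 0.0389) rose, as did the kinase gene Pdpk1, whereas Akt1 (-0.50, adjusted p = 0.0378) and the catalytic subunit Pik3cb (-0.51, adjusted p = 0.0498) fell. The number that fell depended on the method, with 0 in edgeR's quasi-likelihood test and 1 with either other scaling. Of the 12 alternative settings, Pik3r2 was called in 9, Akt1 in 8 and Pik3cb in 4.

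Of the 18 genes of ERK feedback and ERK targets, 17 were tested, 3 rose and 5 fell (median 0.03). The inhibitors of receptor signalling Spry1, at 5.20 and 5.10 RPM in LLC and 23.1 and 21.8 RPM in LLC-Chem (log2 fold change 2.02, adjusted p = 0.00665), and Spry2 (1.36, adjusted p = 0.00665) rose, as did Spred2 (0.45, adjusted p = 0.0452), which was called in 8 of the 12 alternative settings. The transcription factor gene Etv4 (-1.22, adjusted p = 0.0136), the cyclin gene Ccnd1 (-1.05, adjusted p = 0.015) and Epha2 (-0.997, adjusted p = 0.0251) fell, together with the phosphatase genes Dusp4 and Dusp5.

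**Figure D4:**
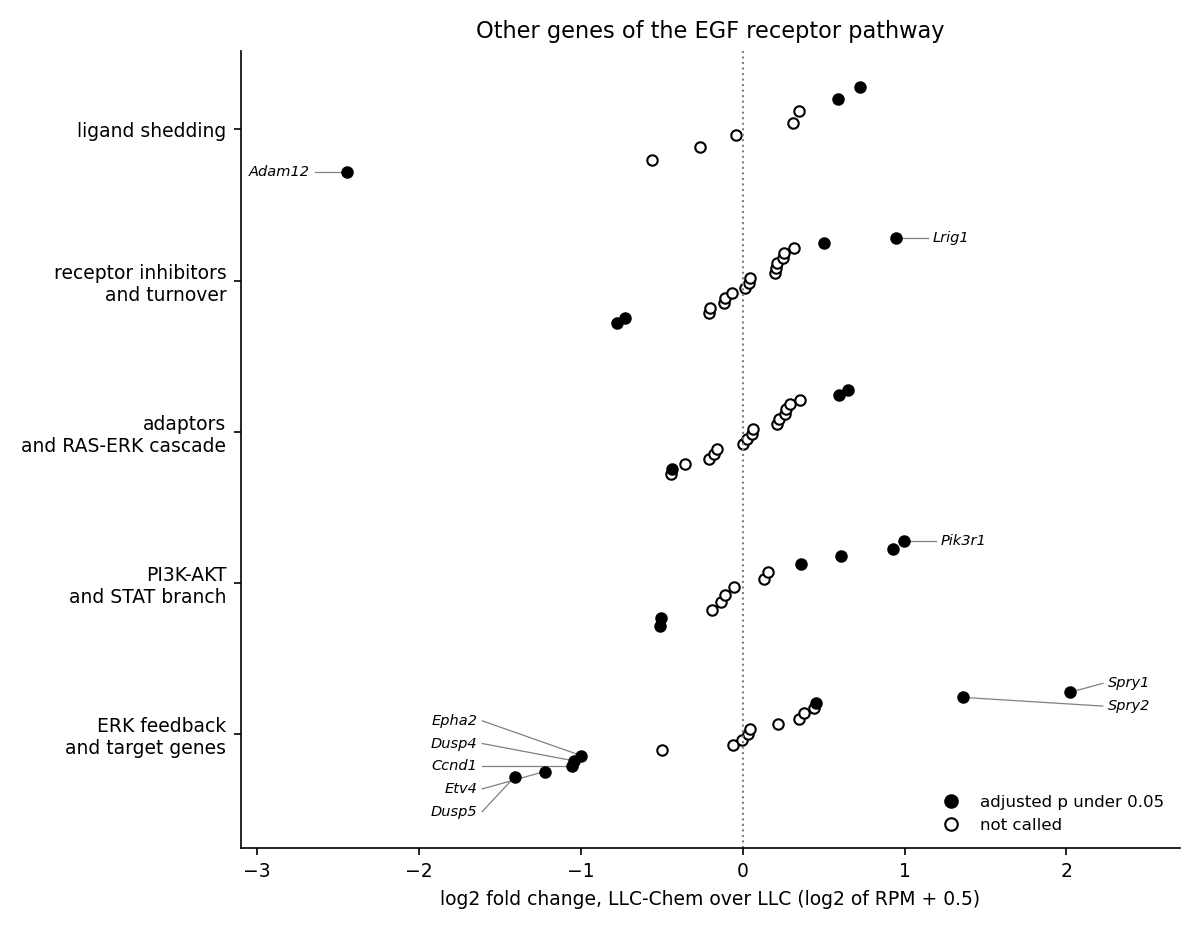
Log2 fold change of LLC-Chem over LLC on the log2(RPM + 0.5) scale for the tested genes of 5 lists of the EGF receptor pathway, in which each circle is a gene, sorted by value within its list, filled where the adjusted p is under 0.05. Each list holds filled circles on both sides of 0, and the farthest from 0 are Spry1 at 2.02 and Adam12 at -2.45.

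Summed markers of other cell types were lower in both LLC-Chem pools for 8 of 11 lists, higher for the adipocyte list and, through Tnnt3 alone, for the muscle list, and overlapping for the Schwann cell list. Mast cell and basophil markers, with Cma1 the most abundant, summed to 72.2 and 31.3 RPM in LLC and 15.1 and 10.6 RPM in LLC-Chem, and the 4 of 5 that were tested were called lower. Neutrophil markers, led by Csf3r, summed to 181 and 111 RPM and to 42.5 and 17.3 RPM, with 3 of the 4 tested called lower. LLC pool 1 was above LLC pool 2 in both of these lists, as for the 6 ligand members tested, and also in the endothelial, Schwann cell, epithelial, adipocyte and T, NK and B cell lists, whereas it was below in the fibroblast, macrophage, keratinocyte and muscle lists. Their part in the ligand values was not tested.

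Endothelial markers, led by Pecam1, summed to 223 and 191 RPM in LLC and 63.1 and 36.1 RPM in LLC-Chem, with 5 of 6 called lower. Macrophage and monocyte markers, led by Mrc1, summed to 1440 and 1698 RPM and to 1143 and 741 RPM, with 3 of 6 called lower. Mrc1 itself overlapped between the groups and was not called (adjusted p = 0.769, limma). T, NK and B cell markers, led by Cd4, summed to 6.50 and 5.70 RPM and to 2.20 and 0.60 RPM, and the 2 that reached a mean of 1 RPM, Cd4 and Ncr1, did so only through the LLC pools. Fibroblast markers, led by Col1a1, summed to 11800 and 20340 RPM and to 8559 and 6869 RPM, but split: Pdgfra was called higher, Dcn and Lum were above the LLC values in both LLC-Chem pools without being called (adjusted p = 0.0753 and 0.0776), and the lower sum came from Col1a1 and Col1a2, which were called lower. The part of these cells in the values of Egfr and the ligands was not tested.

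Epithelial markers, led by Krt8, summed to 311 and 279 RPM in LLC and 265 and 198 RPM in LLC-Chem, with 0 of 3 tested called. Keratinocyte markers were close to absent: Dsg3 was at 0 in all 4 pools, and Krt10 alone reached 1 RPM in a list that summed to 2.998 and 4.45 RPM and to 2.40 and 2.30 RPM. The part of keratinocytes in the ligand values was not tested. Schwann cell markers, led by Mbp, summed to 95.1 and 61.6 RPM and to 70.4 and 87.1 RPM, with 0 called. Of the skeletal muscle markers Ckm and Myh4 were at 0, and the list, led by Tnnt3, summed to 2.35 and 3.10 RPM and to 4.15 and 5.35 RPM. Adipocyte markers, led by Cfd, which was called higher, summed to 3.25 and 2.90 RPM in LLC and 23.0 and 6.25 RPM in LLC-Chem.

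**Figure D5:**
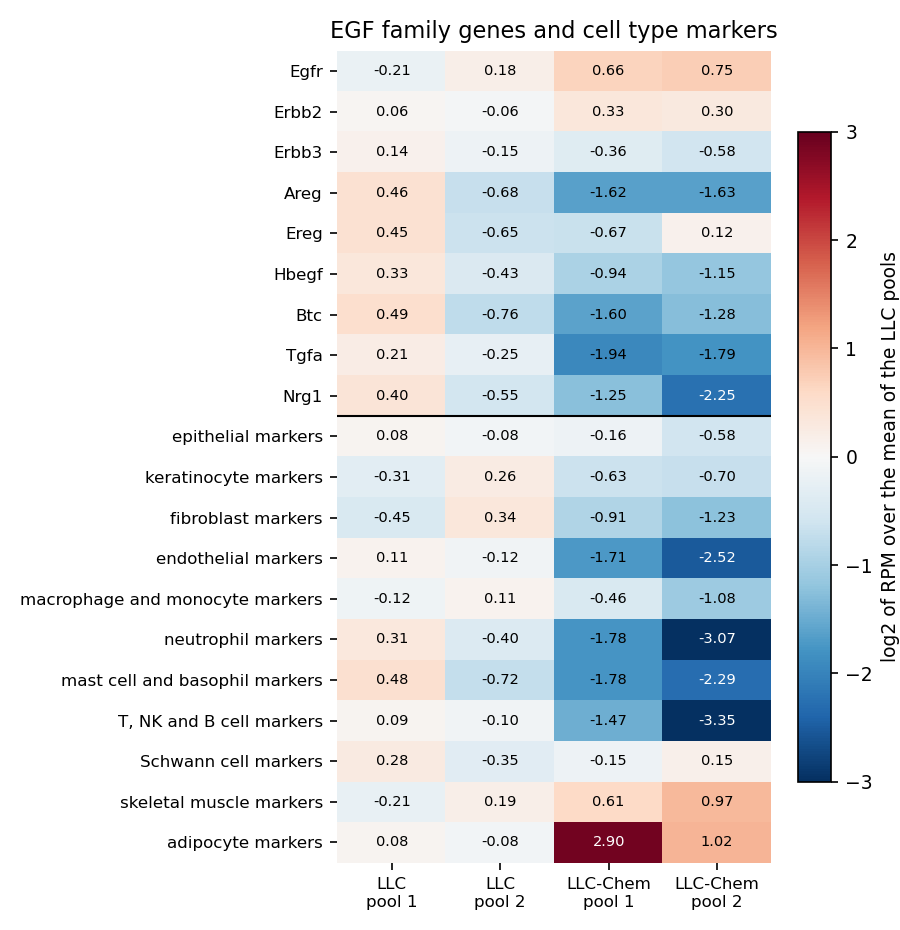
Log2 of each value over the mean of the LLC pools, for 9 members (above the line, RPM) and 11 marker lists (below, summed RPM) in the 4 pools, with red for higher and blue for lower values. Areg is at 0.46 and -0.68 in the LLC pools and -1.62 and -1.63 in the LLC-Chem pools, and the mast cell and basophil markers are at 0.48 and -0.72 and at -1.78 and -2.29.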

How the data were processed

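Paired-end reads of 4 tumor pools were mapped by the authors to GRCm38.p4 (mm10) with STAR and counted on Ensembl genes with HTSeq, and the authors deposited the values as RPM (reads per 1000000) for 47729 genes. The tool versions are not given in the sources used here. The RPM were whole multiples of a step (100.0% of values above 0, within 0.05 of a step). Under an inferred scaling to 20000000 reads, rounded up, reads were recovered from them to within 1 read for the family genes. The rounding of the RPM limits precision below about 1 RPM.

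Groups and replicate numbers came from the sample labels. The main test was two-sided and used limma 3.58.1 (R 4.3.3) with a trend in eBayes, on log2(RPM + 0.5). Its p-values for 13694 genes were adjusted by Benjamini-Hochberg. Beside it, edgeR 4.0.16 (quasi-likelihood, and likelihood ratio) and DESeq2 1.42.0 were run on the recovered reads. The other alternatives were pseudocounts of 0.1 and 1, TMM and median-of-ratios scaling, other filters, eBayes without trend, a replicate block, the longest transcript for lengths, and leaving out each pool. A crossed pairing of the pools was added after the data were seen. The recovery of reads and the limma fit were tested on simulated data. These were made with the same scaling and rounding, so they cannot check that inference. Gene models were those of GENCODE M21 (GRCm38), which held 47224 (98.9%) of the identifiers. The members and lists were chosen with earlier results of these data known. Named are all family genes, for each pathway list at most 3 called genes per direction with the lowest adjusted p, the tested genes near the chromosome 5 members, and of the markers those at 0 and the most abundant. The result of 1 such gene is not reported here. Other genes named (Pdpk1, Dusp4, Dusp5, Epcam, Col1a2, Pdgfra, Dcn, Lum, Ncr1) were added after their values were seen. Plots were made with Python 3.11.15, pandas 2.3.3 and matplotlib 3.10.9.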

Additional observations from a re-analysis of the deposited data

How the results depend on the processing

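Leaving out any pool gave 0 to 0 calls for the members and for every list, but also 0 of all 13694 genes, so that with 1 pool against 2 the lost calls say nothing about the members. Admitting all genes above 0 RPM in any pool likewise left 0 calls for the members and lists (26260 tested, 7397 with an unadjusted p under 0.05, 1 called higher and 0 lower). For the members, eBayes without trend called 0 higher and 1 lower, and edgeR's likelihood ratio test called 5 lower. The replicate numbers did not pair the pools, whose same-numbered deviations correlated at -0.1405. With the replicate block, 549 genes were called higher and 1064 lower, and of the members 1 higher and 2 lower, with Tgfa lost (adjusted p = 0.0628). With the pairing crossed, an alternative chosen after seeing the data, 1579 and 2320 genes were called.

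For the lists, eBayes without trend called 1 shedding gene higher, 1 inhibitor or turnover gene higher and 1 lower, 1 adaptor or RAS-ERK gene higher and 0 lower, 2 PI3K-AKT and STAT genes higher and 0 lower, and 3 ERK genes lower. The replicate block called 1 inhibitor or turnover gene higher and 1 lower, 1 adaptor or RAS-ERK gene higher and 0 lower, and 2 PI3K-AKT and STAT genes higher and 0 lower. Inhibitor and turnover genes called lower were 1 with TMM and 1 in edgeR's quasi-likelihood test, and 1 was called higher at a minimum mean of 0.2 RPM. Adaptor and RAS-ERK genes called lower were 0 with TMM, median-of-ratios, the 0.2 RPM minimum and edgeR's quasi-likelihood test, and 2 with DESeq2. PI3K-AKT and STAT genes called lower were 1 with a pseudocount of 1, TMM, median-of-ratios and the 0.2 RPM minimum, and 0 in edgeR's quasi-likelihood test. The crossed pairing called 2 shedding genes lower. The cause of these changes was not tested.

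With a pool left out, the log2 fold change of Ereg ran from -0.71 to 0.37 and that of Egf from -0.16 to 0.094. The direction reversed for Ereg without LLC replicate 1 (0.37) and without LLC-Chem replicate 1 (0.22), and for Egf without LLC replicate 2 (0.094), none of which was called. Over 12 alternative settings other than leaving out a pool, Egfr, Areg and Tgfa were called in 10 each, Hbegf in 9, Btc in 3 and Nrg1 in 1. The 12 include the crossed pairing, in which all of these but Nrg1 were called (adjusted p = 0.0374 for Btc, limma). Lengths of the longest transcript gave shares of 66.5% and 52.7% for Areg in LLC and LLC-Chem, 18.7% and 21.3% for Hbegf, 0.611% and 0.377% for Tgfa, 0.530% and 0.406% for Nrg1, 10.9% for Ereg in LLC, and 55.6% for Egfr and 41.8% for Erbb2 in LLC-Chem. Reads were few for Epgn, Tgfa and Nrg1, and each group held only 2 pools. Whether read depth or the spread between pools limits a given gene was not tested.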
